A study of Homo sapiens with 12 samples.

Results

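The NRF2 oxidative stress response genes described here were 9 rows of a table of 35238 genes, picked by name: NFE2L2, KEAP1, HMOX1, GCLC, GCLM, TXNRD1, SRXN1, FTL and FTH1. All 9 passed the filter on low values in each comparison. The table came from RNA sequencing of polyA RNA of HK2, an established human kidney line of proximal tubule origin, in 12 libraries, 3 for each of 4 groups. Cells were transfected with 10 nM of a scrambled siRNA duplex (SCR) or of a duplex against POLR2A (siB), the gene of the largest RNA polymerase II subunit, and at the same time received 25 µM aristolochic acid I (AAI), a plant nephrotoxin that forms DNA adducts, or the same volume of its solvent DMSO, for 24 h. The groups are called SCR DMSO, SCR AAI, siB DMSO and siB AAI; the scrambled duplex and the solvent are the controls, so every library was from transfected cells of a single line. Nothing in the sources used here says that the 3 replicates of a group were separate cultures, so p-values measure only the spread between these libraries, which may be technical.

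NRF2, the protein of NFE2L2, is a transcription factor that switches on genes for antioxidant and detoxifying proteins. In unstressed cells KEAP1 holds it in the cytoplasm and presents it to a CUL3 ubiquitin ligase for destruction; oxidants and electrophiles modify cysteines of KEAP1, and newly made NRF2 then reaches the nucleus and binds, with a small MAF protein, at antioxidant response elements. In the kidney the pathway is known for limiting tubular injury by oxidants and by toxins. RNA levels do not show how much NRF2 protein was present or where it was, since its main control is through protein stability.

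The antioxidant response element was searched for in the members' promoters as TGACNNNGC on both strands, in RefSeq windows of 300 bases (build GRCh38.p14) from 250 bases before to 50 bases after an annotated start. Windows were given for 7 of 9 members, 10 windows in all; HMOX1 and FTH1 had no entry. The element's letters were in 4 of the 10 windows and in 13.3% of all 35116 windows. They are shown for GCLM, KEAP1 and TXNRD1, the 3 members with a match, since these show how the element reads in a target gene, in the inhibitor of NRF2 and in a reductase. Each stretch is on the strand of the gene, 5′ to 3′, with the matching letters in capitals; those that begin with GC hold the element on the opposite strand.
GCLM, chr1:93909446-93909474, minus strand, 34 bases before the start: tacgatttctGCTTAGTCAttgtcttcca
KEAP1, chr19:10502807-10502835, minus strand, 54 bases before a start: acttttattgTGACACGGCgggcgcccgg
KEAP1, chr19:10502784-10502812, minus strand, 31 bases before the same start: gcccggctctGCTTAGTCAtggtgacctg
TXNRD1, chr12:104215670-104215698, plus strand, 99 bases before a start: acacgggctaTGACTTCGCtgttgtcacc
TXNRD1, chr12:104215761-104215789, plus strand, 8 bases before the same start: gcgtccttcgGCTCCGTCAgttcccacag
TXNRD1, chr12:104286920-104286948, plus strand, 102 bases before another start: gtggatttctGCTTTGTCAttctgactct
Read on its own strand, the element was TGACTAAGC in both GCLM and the second KEAP1 stretch. Both KEAP1 matches lay before an inner start, in an intron of the MANE Select transcript (the reference transcript shared by RefSeq and GENCODE), and the last TXNRD1 match was intronic for the same reason; the other TXNRD1 pair and the GCLM match lay at or before the first exon. The windows of NFE2L2, GCLC, SRXN1 and FTL did not hold these letters. A match is a run of letters, not a measured binding site.

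The members lie on 9 different stretches of the genome (hg38, MANE Select spans): NFE2L2 at chr2:177230308-177264727, KEAP1 at chr19:10486125-10503356, HMOX1 at chr22:35381096-35394207, GCLC at chr6:53497341-53545101, GCLM at chr1:93885199-93909430, TXNRD1 at chr12:104215779-104350307, SRXN1 at chr20:646615-653200, FTL at chr19:48965309-48966879 and FTH1 at chr11:61964285-61967634. An exon of FTH1 overlaps BEST1 on the other strand, which had 1.43 to 4.98 CPM (reads scaled to a common library total) over the libraries, against 756 to 1586 CPM for FTH1. Whether reads were counted by strand is not given in the sources used here. FTL and FTH1 also have near-identical processed copies elsewhere in the genome; none of the 15 other ferritin rows looked up had a mean of 1 CPM or more, so few reads were placed on them, and how the authors' counting shared reads between copies is not known.

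Depth ran from 15844015 to 42805294 reads assigned to genes per library, so that a count of 3 reads was 0.0701 to 0.189 CPM. Every member was far above this, from 158 reads of HMOX1 in siB AAI replicate 1 to 140931 reads of FTL in SCR DMSO replicate 2. SCR DMSO replicate 2 stood apart: it was the deepest library, its median-ratio size factor relative to depth was 0.768 against 0.946 to 1.11 in the other libraries. POLR2A, the target of the knockdown, had 258 to 306 CPM in SCR DMSO and 138 to 143 CPM in siB DMSO, and 673 to 729 CPM in SCR AAI against 210 to 266 CPM in siB AAI, so each siB library was below every SCR library of its treatment. Of the proximal tubule markers, PAX8, GGT1 and CDH6 had 96.0 CPM or more in every library, while the transporters and receptors of the mature tubule cell were low or near 0, with means of 0.358 CPM for LRP2, 0.279 for AQP1, 0.00526 for SLC22A6, 1.19 for SLC34A1 and 10.2 for SLC5A2. Of 10 markers of other cells, CD68 and COL1A1 had means of 75.5 and 25.9 CPM and the others 2.1 CPM or less.

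Per kilobase of the MANE Select transcript, the ferritin chains were the most abundant members over the 12 libraries, with means of 2360 CPM per kb for FTL, the light chain, and 979 for FTH1, the heavy chain that oxidises iron for storage. TXNRD1, thioredoxin reductase, followed with 158 CPM per kb. KEAP1 had 52.0, NFE2L2 39.6, SRXN1 34.1, HMOX1 24.6, GCLM 11.5 and GCLC 8.39 CPM per kb. FTL, FTH1 and TXNRD1 kept the first 3 places in every group. In SCR DMSO they had 2692 ± 1144, 1011 ± 351 and 133 ± 47.0 CPM per kb (SD, n = 3), and KEAP1, the next, 43.1 ± 17.9. In that group the neighbours KEAP1, NFE2L2 (32.2 ± 18.2), HMOX1 (29.2 ± 17.7) and SRXN1 (27.0 ± 6.87) did not differ beyond their spread. In siB AAI HMOX1 (12.1 ± 5.03 CPM per kb) was within the spread of GCLM (10.4 ± 2.92) and below SRXN1 (28.9 ± 8.29).

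**Figure D1:**
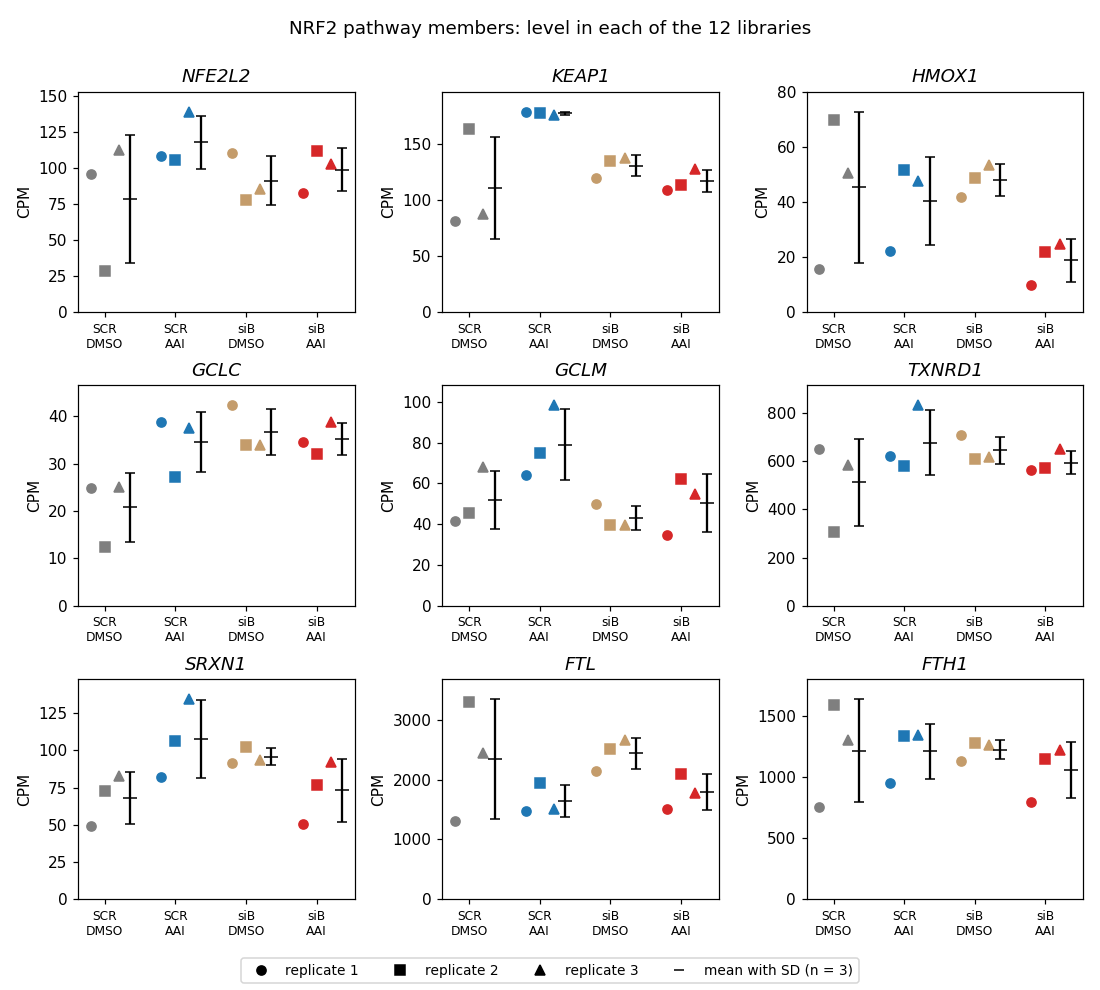
Level of each member in CPM (vertical axes from 0) in the 12 libraries by group; circles, squares and triangles are replicates 1, 2 and 3, and the bar beside them is the mean with its SD (n = 3). The mean of HMOX1 is lowest in siB AAI (10.0 to 24.7 CPM), KEAP1 sits at 175 to 178 CPM in SCR AAI, and NFE2L2 is at 28.2 CPM in SCR DMSO replicate 2.

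The first comparison asked how the pathway stood after 24 h of AAI in cells with the scrambled duplex. Most members read higher with AAI, but none of the 9 passed the test: 0 were raised and 0 lowered at an adjusted p under 0.05 (limma on log2(CPM + 1), Benjamini-Hochberg over 14228 genes), where 8.98% of all genes tested were raised and 3.36% lowered. In this comparison 7 of 9 members had a log2 change above 0, with a median of 0.61, where 61.8% of all genes did, with a median of 0.18. With library scaling by median-ratio size factors the median of all genes was -0.01, a shift of more than 0.1, the members' median was 0.41, and 6 of 9 were above 0. Beside these values, 2 members had an unadjusted p under 0.05, KEAP1 and SRXN1. 

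NFE2L2, the gene of NRF2 itself, had 95.9, 28.2 and 112 CPM in the 3 SCR DMSO libraries and 109, 106 and 139 CPM in SCR AAI. The groups overlapped, and the low value was that of SCR DMSO replicate 2. Its log2 change was 0.79 with a standard error of 0.48 (adjusted p = 0.341), and 0.17 without that library.

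KEAP1, the repressor, had 80.8, 163 and 87.3 CPM in SCR DMSO and 178, 177 and 175 CPM in SCR AAI. The 3 AAI libraries lay together above all 3 controls, of which replicate 2 was nearly as high. The log2 change was 0.75 ± 0.29 (SE; adjusted p = 0.141), a ratio of the means of 1.60. Without SCR DMSO replicate 2 it was 1.07 (adjusted p = 0.00292), and KEAP1 was then the 1 member raised, where 13.5% of all genes were.

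GCLC and GCLM encode the catalytic and the modifier subunit of glutamate-cysteine ligase, which makes the first product on the way to glutathione. GCLC had 24.8, 12.4 and 25.1 CPM in SCR DMSO and 38.8, 27.2 and 37.5 CPM in SCR AAI, without overlap (log2 change 0.75 ± 0.33, SE; adjusted p = 0.189). Without SCR DMSO replicate 2, the library at 12.4 CPM, the change was 0.44. GCLC and KEAP1 were the 2 of 9 members whose AAI libraries all lay above the controls, where 22.2% of all genes did so. GCLM had 41.7, 45.5 and 68.1 CPM in SCR DMSO and 64.2, 74.6 and 98.2 CPM in SCR AAI. The GCLM groups overlapped, yet within each replicate number the AAI library was higher, by 1.54, 1.64 and 1.44 times (log2 change 0.61 ± 0.27, SE; adjusted p = 0.197).

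SRXN1, sulfiredoxin, which repairs overoxidised peroxiredoxins, had 49.1, 72.6 and 83.0 CPM in SCR DMSO and 82.5, 107 and 134 CPM in SCR AAI. Its 3 ratios by replicate number were 1.68, 1.47 and 1.62, all above 1, while the group ranges met at their edges (log2 change 0.66 ± 0.28, SE; adjusted p = 0.180). TXNRD1 had 650, 307 and 583 CPM in SCR DMSO and 621, 581 and 833 CPM in SCR AAI, and its groups overlapped (0.45 ± 0.32, SE; adjusted p = 0.404). Its change was 0.12 without SCR DMSO replicate 2 and 0.30 without SCR AAI replicate 3, its highest library.

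HMOX1 encodes haem oxygenase 1, which breaks down haem to biliverdin, iron and carbon monoxide. It had 15.6, 69.9 and 50.7 CPM in SCR DMSO and 22.1, 51.8 and 47.6 CPM in SCR AAI. Replicate 1 was the lowest in both groups, and the ranges nearly coincided (log2 change -0.01, 95% interval -1.31 to 1.29, adjusted p = 0.993). FTL had 1306, 3292 and 2437 CPM in SCR DMSO and 1471, 1944 and 1516 CPM in SCR AAI (log2 change -0.42, 95% interval -1.24 to 0.39; -0.80 without SCR DMSO replicate 1 and -0.13 without SCR DMSO replicate 2). FTH1 had 756, 1586 and 1306 CPM against 955, 1333 and 1349 CPM (log2 change 0.04, interval -0.69 to 0.78). The interval of HMOX1 holds a 2-fold change in either direction, so for this gene no change was detectable rather than shown to be absent.

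These libraries were taken as paired by replicate number, from the correlations of same-numbered libraries alone. With the number as a block in limma, 2 members were raised, GCLC (adjusted p = 0.0489) and SRXN1 (adjusted p = 0.0383), where 14.7% of all genes were raised. With all 4 groups in one fit 2 were raised as well, KEAP1 (adjusted p = 0.0260) and GCLC (adjusted p = 0.0462), where 17.6% of all genes were. Both shares of the members, 2 of 9, were near the background.

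**Figure D2:**
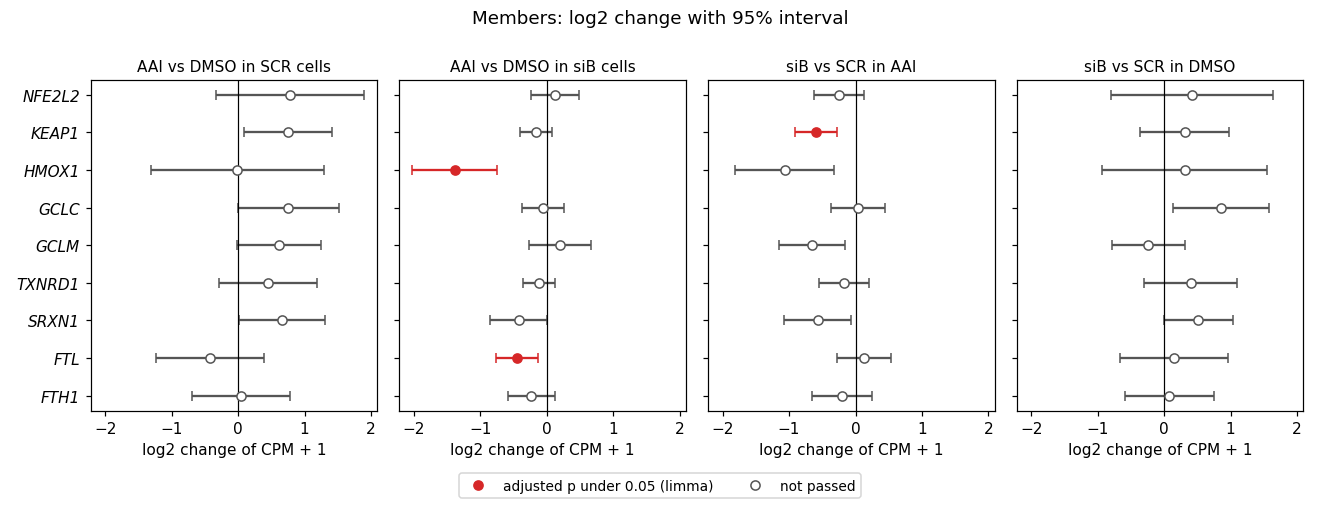
Log2 change of log2(CPM + 1) for the 9 members in the 4 comparisons (horizontal axes), with 95% intervals from limma; filled points passed at an adjusted p under 0.05. HMOX1 and FTL passed between siB AAI and siB DMSO (-1.39 and -0.45), KEAP1 passed between siB AAI and SCR AAI (-0.60), and no member passed in the other 2 panels.

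The second comparison asked the same of cells in which POLR2A was knocked down. CPM is a share of a library's reads, so that less RNA per cell, or fewer cells that express a gene, cannot be told apart in these values. Here HMOX1 and FTL were lower with AAI, and no member was higher: 2 of 9 were lowered and 0 raised, where 21.8% of 14928 genes were lowered and 30.4% raised. The share lowered among the members was thus near the background and none was raised. Of the 9 log2 changes 7 were below 0, with a median of -0.16, where 44.1% of all genes were below 0, with a median of 0.10.

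HMOX1 had 41.7, 48.8 and 53.4 CPM in siB DMSO and 10.0, 21.9 and 24.7 CPM in siB AAI. All 3 treated libraries lay below all 3 controls, at 0.239, 0.448 and 0.463 times the library of the same number. These groups were not taken as paired by number, so the ratios are only a description. The log2 change was -1.39 ± 0.28 (SE; adjusted p = 0.00283, limma), and the mean was 60.7% lower. It passed in 14 of 15 alternatives (adjusted p from 0.000157 to 0.0506).

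FTL had 2148, 2511 and 2653 CPM in siB DMSO and 1505, 2099 and 1783 CPM in siB AAI, again without overlap (log2 change -0.45 ± 0.14, SE; adjusted p = 0.0232). HMOX1 and FTL were the 2 of 9 members with all AAI libraries below the controls, where 26.6% of all genes were so. It passed in 9 of 15 alternatives, with adjusted p up to 0.251. With all 4 groups in one fit neither gene passed (0 of 9 lowered, where 14% of all genes were), HMOX1 at an adjusted p = 0.0506.

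The other members did not pass. SRXN1 had 91.7, 102 and 93.5 CPM in siB DMSO and 50.7, 76.6 and 92.2 CPM in siB AAI, with 1 treated library inside the control range (log2 change -0.42 ± 0.19, SE; adjusted p = 0.0890; -0.19 without siB AAI replicate 1). FTH1 had 1133, 1279 and 1262 CPM against 796, 1148 and 1226 CPM (-0.24, adjusted p = 0.232). KEAP1 had 120, 134 and 137 CPM against 109, 113 and 127 CPM (-0.16, adjusted p = 0.236). NFE2L2 had 111, 78.0 and 85.4 CPM against 82.7, 112 and 103 CPM (0.12, adjusted p = 0.546), so that its ranges crossed in both directions. GCLC had 42.3, 34.0 and 33.8 CPM against 34.6, 32.0 and 38.7 CPM, and TXNRD1 had 709, 608 and 619 CPM against 564.1, 572 and 649 CPM. GCLM had 49.6, 39.4 and 39.6 CPM against 34.7, 62.2 and 54.8 CPM (0.20, adjusted p = 0.441), and without siB AAI replicate 1, its lowest library, it passed as raised (0.44, adjusted p = 0.0309). The intervals of GCLC (-0.37 to 0.25) and TXNRD1 (-0.35 to 0.12) leave out a 2-fold change.

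The third comparison set siB against SCR cells, both with AAI. KEAP1 was lower in siB cells, and HMOX1, GCLM and SRXN1 read lower too without passing. 1 of 9 members was lowered and 0 raised, where 3.79% of 14946 genes were lowered and 5.49% raised. The median log2 change of the members was -0.25, with 7 of 9 below 0, against a median of 0.00 and 49.7% below 0 over all genes.

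KEAP1 had 178, 177 and 175 CPM in SCR AAI and 109, 113 and 127 CPM in siB AAI. The groups were far apart for their spread, with means of 177 ± 1.55 and 116 ± 9.54 CPM (SD, n = 3), and each siB library had 0.611 to 0.726 times the SCR library of its number. The log2 change was -0.60 ± 0.15 (SE; adjusted p = 0.0246, limma). It passed in 10 of 15 alternatives, with adjusted p up to 0.129. 

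HMOX1 had 22.1, 51.8 and 47.6 CPM in SCR AAI and 10.0, 21.9 and 24.7 CPM in siB AAI. The ranges overlapped, since SCR AAI replicate 1 was low, but the ratios by number were alike at 0.450, 0.423 and 0.519 (log2 change -1.07 ± 0.34, SE; adjusted p = 0.0723). GCLM had 64.2, 74.6 and 98.2 CPM against 34.7, 62.2 and 54.8 CPM, without overlap (-0.65 ± 0.23, SE; adjusted p = 0.0917). SRXN1 had 82.5, 107 and 134 CPM against 50.7, 76.6 and 92.2 CPM, with ratios of 0.614, 0.719 and 0.686 (-0.57 ± 0.23, SE; adjusted p = 0.143). KEAP1 and GCLM were the 2 of 9 members with all siB libraries below all SCR libraries, where 15.8% of all genes were so. In HMOX1, GCLM and SRXN1 replicate 1 was the lowest library of each group, and without siB AAI replicate 1 the changes were -0.69, -0.41 and -0.33.

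With the replicate number as a block, 4 members were lowered: KEAP1 (adjusted p = 0.000363), HMOX1 (1.42e-09), GCLM (0.000171) and SRXN1 (0.00107), where 13.8% of all genes were lowered. In that fit limma took the spread of each gene from the trend over genes of like level and not from the gene's own libraries, so these p-values rest on that trend. They also rest on the pairing, which was read from the data. The same number passed without SCR AAI replicate 1 (5.34% of all genes lowered). None passed with all 4 groups in one fit, where 2.58% of all genes were lowered. None passed without SCR AAI replicate 3 or without any 1 of the siB AAI replicates. Of 14946 genes, 62 were lowered without SCR AAI replicate 3, against 567 in the main fit. Without siB AAI replicate 1, 2 or 3, 292, 185 and 177 were lowered, so fewer genes passed over all genes too.

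**Figure D3:**
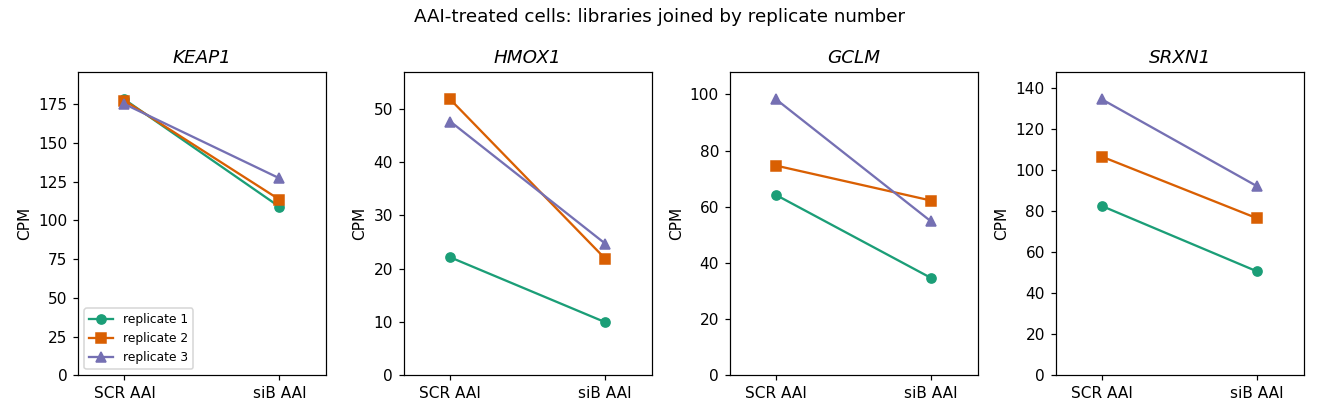
CPM (vertical axes from 0) of KEAP1, HMOX1, GCLM and SRXN1 in the AAI-treated libraries, with lines joining the SCR and the siB library of the same replicate number. All 12 lines fall; KEAP1 starts at 175 to 178 CPM in the 3 SCR libraries, while HMOX1 and SRXN1 start from a low replicate 1 (22.1 and 82.5 CPM).

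The remaining members were close between the AAI groups. GCLC had a log2 change of 0.04 (interval -0.37 to 0.44), TXNRD1 -0.17 (-0.55 to 0.20), FTL 0.13 (-0.29 to 0.54), FTH1 -0.20 (-0.66 to 0.25) and NFE2L2 -0.25 (-0.63 to 0.13). Each of these intervals leaves out a 2-fold change in either direction.

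Without AAI, the knockdown moved no member past the test: 0 of 9 passed, where 0% of 13606 genes were raised and 0% lowered (limma; 644 genes had an unadjusted p under 0.05, and the lowest adjusted p was 0.257). POLR2A itself did not pass here, with a log2 change of -1.01 ± 0.13 (SE) and an adjusted p of 0.505 in limma. Yet every siB DMSO library was below every SCR DMSO library for POLR2A. The test thus missed a change of that size, and 0 passes do not show that the members were unchanged. 8 of 9 members read higher in siB DMSO than in SCR DMSO, with a median log2 change of 0.31, where 60.4% of all genes read higher, with a median of 0.06. GCLC had 42.3, 34.0 and 33.8 CPM in siB DMSO against 24.8, 12.4 and 25.1 CPM in SCR DMSO, without overlap (log2 change 0.85 ± 0.30, SE; unadjusted p = 0.0268; 0.53 without SCR DMSO replicate 2). SRXN1 did not overlap either, with 91.7 to 102 CPM against 49.1 to 83.0 CPM (0.51 ± 0.22, SE; 0.30 without SCR DMSO replicate 1). These were 2 of 9 members, where 8.28% of all genes were higher in siB DMSO without overlap. GCLM was the 1 member with a change below 0 (-0.24 ± 0.23, SE). Without SCR DMSO replicate 1, 5 of 9 members read higher, where 69.5% of all genes did, and the members' median of 0.12 was below the 0.15 of all genes.

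Whether AAI acted differently with and without the knockdown was tested as an interaction over all 12 libraries. The difference, the AAI change in siB cells minus that in SCR cells, was below 0 for all 9 members, with a median of -0.67, where 56.2% of 15325 genes were below 0, with a median of -0.06. None of the 9 passed: 0 were raised and 0 lowered, where 1.46% of all genes were raised and 0.157% lowered. The members share libraries and the comparison shares its libraries with those above, so the common sign is a description. It was -1.38 ± 0.71 for HMOX1, -1.08 ± 0.36 for SRXN1, -0.91 ± 0.31 for KEAP1 and -0.81 ± 0.36 for GCLC (SE), with adjusted p of 0.449, 0.192, 0.207 and 0.350 in the limma fit. NFE2L2 (-0.67), TXNRD1 (-0.57), GCLM (-0.41) and FTH1 (-0.28) were intermediate, and FTL was at -0.02.

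SCR DMSO replicate 2 had a part in these values. Without it all 9 differences were still below 0, with a median of -0.50 against 0.06 for all genes, and 1 member was lowered, KEAP1 (-1.23, adjusted p = 0.00758), where 3.34% of all genes were. With the replicate number as a block 1 was lowered too, SRXN1 (adjusted p = 0.0363), where 0.666% of all genes were. That block spans all 12 libraries, of which siB DMSO was not taken as paired by number with siB AAI or SCR DMSO. With median-ratio size factors 8 of 9 differences were below 0, with a median of -0.58. Without SCR DMSO replicate 1, 7 of 9 were below 0 (median -0.75), where 63.6% of all genes were (median -0.16). Leaving out SCR AAI replicate 2, siB DMSO replicate 2 or 3, or siB AAI replicate 1 gave 8 of 9 below 0. Leaving out any other library gave all 9. Over genes with a mean of at least 5 CPM, 64.7% were below 0, with a median of -0.13 against -0.67 for the members.

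Ratios of 2 members within a library do not depend on the scaling between libraries. The FTH1 to FTL ratio of CPM was 0.579, 0.482 and 0.536 in SCR DMSO and 0.649, 0.685 and 0.890 in SCR AAI. It was 0.527, 0.509 and 0.476 in siB DMSO and 0.529, 0.547 and 0.688 in siB AAI. In both kinds of cell every AAI library lay above every DMSO library, though siB replicate 1 differed little (0.529 against 0.527). On average the heavy chain thus rose relative to the light chain. The AAI change was 0.34 on the log2 scale (2-sided exact permutation test of the AAI and DMSO labels within each siRNA, p = 0.005, the smallest that its 400 arrangements allow, and 0.015 after adjustment over the 3 ratios). With labels exchanged within pairs of the same number it was p = 0.03125, the smallest that this permutation allows, and 0.0938 after adjustment over the 3 ratios, with 6 of 6 same-numbered libraries higher. The siB AAI and siB DMSO libraries were not taken as paired by number. Without siB DMSO replicate 2 or 3 the adjusted p of the exact permutation test was 0.06, with changes of 0.34 and 0.32. The rise was 0.47 from the means of SCR cells (-0.91 ± 0.13 to -0.45 ± 0.24, SD, n = 3) and 0.21 from those of siB cells (-0.99 ± 0.08 to -0.78 ± 0.21); the difference between the 2 was not tested.

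The GCLM to GCLC ratio was 1.68, 3.68 and 2.71 in SCR DMSO and 1.66, 2.75 and 2.62 in SCR AAI, against 1.17, 1.16 and 1.17 in siB DMSO and 1.002, 1.95 and 1.42 in siB AAI. Its AAI change was 0.05 on the log2 scale (exact permutation p = 0.815, adjusted 0.840). The design fixed no test of this ratio between the siRNAs. The NFE2L2 to KEAP1 ratio was 1.19, 0.173 and 1.29 in SCR DMSO and 0.610, 0.597 and 0.796 in SCR AAI, and 0.582 to 0.985 over the 6 siB libraries. Its AAI change was 0.16 (exact permutation p = 0.840, adjusted 0.840), and without SCR DMSO replicate 2, the library at 0.173, it was -0.31 (p = 0.260).

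**Figure D4:**
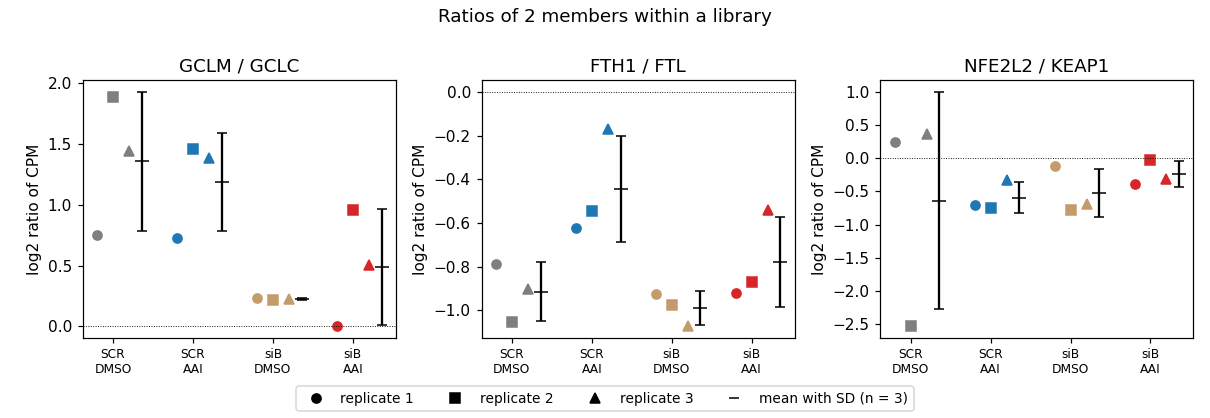
Log2 ratio of the CPM of 2 members in each of the 12 libraries by group, with the mean and SD (n = 3) beside the points. In the FTH1 / FTL panel the AAI libraries lie above the DMSO libraries with either siRNA, by a narrow margin in siB cells. NFE2L2 / KEAP1 in SCR DMSO spans from replicate 2 at -2.53 to the other replicates at 0.25 and 0.36.

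Other genes of the pathway, from lists of 15 further regulators, 34 further NRF2 targets, 25 further antioxidant enzymes, 16 further glutathione genes and 18 further genes of iron and haem, were read in the same fits. In SCR cells AAI raised 3 of 29 tested targets and lowered 0 (median change 0.12 for the list and 0.18 for all genes), a share near the 8.98% of all genes raised. These were OSGIN1, an oxidative stress induced growth inhibitor, and the efflux pumps ABCC2 and ABCC3, which export conjugates. OSGIN1 had 8.18, 16.9 and 20.52 CPM in SCR DMSO and 49.3, 89.4 and 65.5 CPM in SCR AAI, without overlap (2.14 ± 0.38, SE; adjusted p = 0.00895). ABCC3 had 40.3, 34.5 and 45.3 CPM against 83.8, 94.9 and 104 CPM (1.22, adjusted p = 0.00884).

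ABCC2 had 1.06, 0.654 and 1.43 CPM in SCR DMSO and 4.91, 4.53 and 5.68 CPM in SCR AAI. In siB cells it had 1.58, 1.04 and 1.12 CPM with DMSO and 21.2, 18.3 and 21.0 CPM with AAI. The groups were thus in steps, with siB AAI above all others. Its log2(CPM + 1) change, which understates that of so low a gene, was 1.57 in SCR cells (adjusted p = 0.00350) and 3.24 in siB cells (adjusted p = 1.55e-06). Of the 105 genes of the 5 lists that were tested, ABCC2 alone passed the interaction (1.67 ± 0.27, SE, adjusted p = 0.0115, limma). This was 1 of 105, where 1.46% of all genes were raised and 0.157% lowered, so the share was near the background. Its sign was opposite to that of the 9 members. Over genes with a mean of at least 5 CPM no gene passed the interaction in either direction. Of the 32 targets tested in the interaction fit, 28 had a difference below 0, with a median of -0.33, where 56.2% of all genes did, with a median of -0.06. Without AAI no gene of these lists passed between siB and SCR cells, and 26 of 30 targets read higher in siB cells (median 0.19). Of all genes 60.4% read higher in that comparison (median 0.06), and 69.5% without SCR DMSO replicate 1.

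Of the other lists, AAI in SCR cells raised 1 of 15 regulators, MAFF, a small MAF partner of NRF2 (1.21, adjusted p = 0.0315), and 1 of 18 iron and haem genes, TFRC, the transferrin receptor (0.97, adjusted p = 0.0314). It lowered 1 of 24 antioxidant enzymes, MSRA, a methionine sulfoxide reductase (-1.39, adjusted p = 0.00594), and 1 of 16 glutathione genes, OPLAH, which opens 5-oxoproline to glutamate (-1.29, adjusted p = 0.0180). MSRA had 3.33, 4.79 and 3.93 CPM in SCR DMSO and 0.552, 1.13 and 1.06 CPM in SCR AAI. TFRC had 208 to 215 CPM in SCR DMSO and 310 to 496 CPM in SCR AAI. Of 15 alternatives, TFRC passed in 9 (adjusted p up to 0.145), MAFF in 10, OPLAH in 11 and MSRA in 14. The background was again 8.98% raised and 3.36% lowered, and the median changes of these 4 lists lay between -0.17 (glutathione genes) and -0.01 (iron and haem genes), below the 0.18 of all genes.

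In siB cells AAI raised 4 and lowered 7 of 30 targets, raised 3 and lowered 4 of 15 regulators, raised 0 and lowered 10 of 24 antioxidant enzymes, raised 1 and lowered 7 of 16 glutathione genes, and raised 3 and lowered 7 of 18 iron and haem genes. The background for these counts is the 30.4% raised and 21.8% lowered given above, and the lists' median changes lay between -0.24 (glutathione genes) and -0.15 (targets), against 0.10 over all genes. MSRA (-1.56), OPLAH (-1.41), TFRC (1.60), MAFF (0.81), ABCC3 (0.69) and OSGIN1 (0.67) passed in siB cells as well, each in the direction it had in SCR cells. SLC48A1, a haem transporter named after its values were seen, fell by 1.64 on the log2 scale in siB cells (adjusted p = 6.53e-06). In SCR cells it had 42.0, 71.2 and 84.2 CPM with DMSO and 28.1, 34.3 and 29.9 CPM with AAI, without overlap (-1.02, adjusted p = 0.0619; it passed in 5 of 15 alternatives). NQO1, a quinone reductase often read as a measure of NRF2 activity, also named after its values were seen, had a log2 change of 0.03 in SCR cells (adjusted p = 0.970) and -0.55 in siB cells (adjusted p = 0.0512).

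Between the AAI groups, siB cells had higher MAFF (0.53, adjusted p = 0.0490) and ABCC2 (1.81, adjusted p = 0.000582) and lower TRIM16L (-1.28, adjusted p = 0.00788), TRIM16 (-0.95, adjusted p = 0.01), MSRB1 (-0.85, adjusted p = 0.0305), SLC40A1 (-0.85, adjusted p = 0.0433) and PCBP1 (-0.59, adjusted p = 0.0298) than SCR cells. Of 15 alternatives MAFF passed in 3 (adjusted p up to 0.224), SLC40A1 in 6, MSRB1 in 8, PCBP1 in 9, TRIM16 and TRIM16L in 14 each and ABCC2 in 15. Raised were 1 of 15 regulators and 1 of 30 targets, and lowered were 2 of 30 targets, 1 of 24 antioxidant enzymes and 2 of 18 iron and haem genes, where 5.49% of all genes were raised and 3.79% lowered. None of the 16 glutathione genes passed, and the lists' medians lay between -0.11 (targets) and 0.05 (regulators) against 0.00 over all genes. TRIM16 is known to aid NRF2 stability, SLC40A1 is the iron exporter ferroportin and PCBP1 carries iron to ferritin. TRIM16 had 47.2, 57.1 and 61.7 CPM in SCR AAI and 22.9, 29.2 and 32.8 CPM in siB AAI, without overlap. TRIM16L had 49.3, 70.3 and 84.6 CPM against 19.2, 29.4 and 34.0 CPM. TRIM16 and TRIM16L are near copies of each other, and the authors' counting may have split their reads. MAFF read higher in siB cells without AAI too, at 59.7 to 65.3 CPM against 21.3 to 43.3 CPM in SCR DMSO. It did not overlap there, as for 8.28% of all genes, and did not pass. For the other genes named in this paragraph the DMSO groups overlapped.

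**Figure D5:**
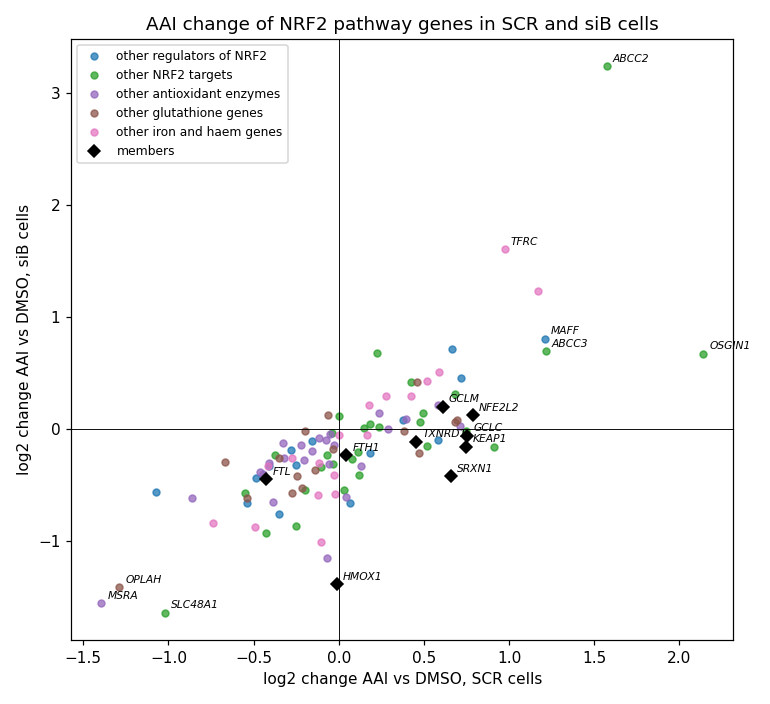
Log2 change from AAI in SCR cells (horizontal) and in siB cells (vertical) for the members (black diamonds) and the genes of the 5 further lists (coloured circles) that were tested in both; the axes share no libraries. HMOX1 lies at -0.01 and -1.39, ABCC2 at 1.57 and 3.24 and OSGIN1 at 2.14 and 0.67.

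The genes with the pattern most like that of NFE2L2 over the 12 libraries were NOL11, WDR43 and PTCD3 (Pearson r of log2(CPM + 1) 0.99, 0.98 and 0.98 among 11560 genes with a mean of at least 5 CPM). Each was lowest in SCR DMSO replicate 2, where NOL11 had 20.3 CPM against 47.5 CPM or more elsewhere, so these correlations share that library. For HMOX1 they were FHL2, TRIB3 and SQSTM1 (r 0.98, 0.97 and 0.97). TRIB3 had 124, 354 and 289 CPM in SCR DMSO, with AAI 115, 299.9 and 228 CPM; siB cells had 232, 301 and 305 CPM with DMSO and 60.1, 130 and 113 CPM with AAI. Like HMOX1, it was lowest in siB AAI replicate 1 and lower in replicate 1 than in the other replicates of every group. SQSTM1, which encodes p62, a protein that can draw KEAP1 into autophagy, had 437 to 599 CPM in siB AAI and 559 to 898 CPM in the other 9 libraries.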

How the data were processed

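HK2 cells in 4 groups of 3 libraries were measured by paired-end RNA sequencing of polyA RNA. Per the study's methods, reads were aligned to hg38 and counted per gene with UCSC annotation; the aligner and the strand setting are not given in the sources used here. The authors deposited values on a log10 scale, log10(CPM + 1), in a table of 35238 genes; it was turned back to CPM, and whole reads were recovered for 100% of values (within 0.1 of a read). Groups came from the sample titles, since the treatment label reads DMSO for every sample; columns of the table were matched to titles by siRNA name and replicate number, with A read as AAI and D as DMSO.

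Each comparison was fitted on its own pair of groups with limma 3.58.1 (R 4.3.3; lmFit, eBayes with trend) on log2(CPM + 1), over genes with at least 1 CPM in at least 3 of the libraries fitted, with Benjamini-Hochberg adjustment over all genes tested; passed, raised and lowered mean an adjusted p under 0.05. The interaction used all 12 libraries. Log2(CPM + 1) understates the change of low genes. The fitting steps were tested on simulated data drawn from the real means and depths. The spread between simulated libraries was a fixed setting, so that test does not show what could be detected here. Ratios of 2 members within a library were compared by 2-sided exact permutation tests. The fits were repeated with a pseudocount of 0.1, without the filter, over genes with a mean of at least 5 CPM, with median-ratio size factors, all 4 groups in one fit, the replicate number as a block, voom on the recovered reads, no trend, CPM without AC010970.2 (a row that took up to 105566 CPM, chosen after seeing the data) and leaving out each library. Libraries of the same number departed together from the mean of their group, with correlations over 15325 genes of 0.42, 0.47 and 0.34 between SCR AAI and SCR DMSO and of 0.61, 0.32 and 0.29 between siB AAI and SCR AAI, so these were taken as paired; the numbers come from the titles. Between siB AAI and siB DMSO (0.21, 0.03 and 0.19) and between siB DMSO and SCR DMSO (0.73, 0.59 and -0.19) they were not taken as paired. Libraries of unlike number were not compared in this way, and the titles give only numbers, so the pairing was not tested.

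The members and lists were chosen with earlier results of these data known. Named besides the members were, from each further list, at most 3 genes raised and 3 lowered, taken by size of change among those that passed in AAI vs DMSO in SCR cells and in siB vs SCR in AAI, POLR2A, and the 3 genes most correlated with NFE2L2 and with HMOX1; other names were added after their values were seen. Some genes of the lists are not reported by name here. Annotation was GENCODE 44 on hg38, and promoter windows were from RefSeq (GRCh38.p14). Precision is limited by 3 libraries per group; depth floors cover counting error only.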

Additional observations from a re-analysis of the deposited data

Results flagged for a closer look

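For 3 genes the AAI changes of SCR and siB cells are set side by side, since the same-numbered libraries moved in opposite directions (KEAP1, SRXN1) or the test of the difference passed (ABCC2). The siB AAI and siB DMSO libraries were not taken as paired by number. KEAP1 read higher with AAI in 3 of 3 same-numbered SCR libraries and lower in 3 of 3 same-numbered siB libraries; the difference, siB minus SCR, was -0.91 on the log2 scale and did not pass the interaction test (adjusted p = 0.207, limma; 0.00758 to 0.497 over 20 alternatives). SRXN1 also read higher in the 3 SCR and lower in the 3 siB comparisons by number, with a difference of -1.08 (adjusted p = 0.192, limma; 0.0363 to 0.397 over 20 alternatives). ABCC2 passed the interaction test with a difference of 1.67 (adjusted p = 0.0115, limma), rising further in siB than in SCR cells; it passed in 17 of 20 alternatives, with adjusted p up to 0.242. No formal outlier test was run, as groups held 3 libraries.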

How the results depend on the processing

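Over the alternatives, 667 of 720 refits of a member's log2 change kept both direction and side of the threshold; 24 changed sign, 17 newly passed and 12 no longer passed. Of the counts of members raised or lowered, 142 of 160 stayed within 1.5 times, and 126 of 800 counts for the further lists moved by more. Members raised by AAI in SCR cells numbered 2 with all 4 groups in the fit and 2 with the replicate block, and 0 to 1 when a library was left out. Members lowered by AAI in siB cells numbered 1 with no filter and 0 with all 4 groups, and 1 to 2 when a library was left out (0 to 1 raised). Members lower in siB than SCR cells under AAI numbered 0 with all 4 groups and 4 with the replicate block, and 0 to 4 when a library was left out. For the interaction 1 member was lowered with the replicate block and 0 to 1 when a library was left out. In the comparisons not taken as paired, the block gave 3 lowered members (SRXN1 added) for AAI in siB cells and 0 for siB against SCR with DMSO. The cause of these moves was not tested; a fit without a library has fewer samples.

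The changes of sign all concerned values that had not passed. For AAI in SCR cells, CPM without AC010970.2 (chosen after seeing the data) gave 0.022 for HMOX1 and 0.015 for PCBP1, and median-ratio scaling gave -0.16 for FTH1 and -0.17 for NQO1. Median-ratio scaling also gave -0.0096 for FTH1 and -0.012 for SLC40A1 in siB against SCR with DMSO, and 0.065 for FTL in the interaction. With a library left out, changes from AAI in SCR cells ran from -0.63 to 0.41 for HMOX1, -0.27 to 0.27 for FTH1, -0.28 to 0.066 for MSRB1, -0.12 to 0.11 for PCBP1, -0.43 to 0.36 for SLC40A1 and -0.32 to 0.29 for NQO1. Those from AAI in siB cells ran from -0.13 to 0.043 for GCLC, -0.13 to 0.12 for TRIM16 and -0.32 to 0.073 for TRIM16L, and GCLC ran from -0.12 to 0.13 in siB against SCR with AAI. In siB against SCR with DMSO they ran from -0.20 to 0.78 for NFE2L2, -0.31 to 0.73 for HMOX1, -0.22 to 0.44 for FTL, -0.23 to 0.30 for FTH1, -0.0055 to 0.27 for ABCC2, -0.13 to 0.10 for PCBP1, -0.27 to 0.52 for SLC40A1, -0.15 to 0.46 for NQO1 and -0.061 to 0.43 for SLC48A1. In the interaction they ran from -0.32 to 0.35 for FTL and -0.50 to 0.030 for FTH1. The GCLM to GCLC ratio ran from -0.10 to 0.18 and the NFE2L2 to KEAP1 ratio from -0.31 to 0.42, and the FTH1 to FTL ratio from 0.27 to 0.38. Its exact permutation p, adjusted over the 3 ratios, was 0.06 without siB DMSO replicate 2 or 3 (0.045 or less without any other library), and with the replicate block the change of 0.34 had an adjusted p of 0.0938, which the smallest p of that permutation sets. Groups held 3 libraries, and SCR DMSO had a wide spread for several members. The lowest count of any member in a library was 158 reads, of HMOX1. How far spread or depth limited what could be detected was not tested.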
